A study of Homo sapiens with 30 samples.

Results

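The laminin chains and nidogens followed here were 9 genes chosen by symbol (LAMA2, LAMA3, LAMA4, LAMA5, LAMB1, LAMB2, LAMC1, NID1 and NID2). All 9 were found among the 57373 genes of the count table, and all 9 were among the 18485 genes that had enough counts to be tested. RNA was sequenced from U2OS cells, a human osteosarcoma line, in 6 groups of 5 libraries: dhelix FOXP2 + CHIR, WT FOXP2 + CHIR, CHIR, dhelix FOXP2, WT FOXP2 and mock. WT FOXP2 cells overexpressed the unchanged transcription factor, and dhelix FOXP2 cells a form of it that lacks residues 264 to 272, each from 500 ng of plasmid for 48 hours. CHIR99021, called CHIR below, was given at 5 µM from 72 hours before transfection. All groups came from the same line, and the labels call the 5 libraries of a group biological replicates. They do not say whether mock and CHIR cells received an empty plasmid, so an effect of FOXP2 and one of carrying plasmid DNA cannot be told apart in the comparisons with mock or with CHIR. The genotype field of WT FOXP2 + CHIR replicate 1 leaves out the word WT, and its title places it in that group.

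Laminins are large secreted proteins built from an alpha, a beta and a gamma chain joined in a coiled coil. They polymerise under cells into the sheet from which the basement membrane is assembled, and the alpha chain carries the main sites for integrins and dystroglycan at the cell surface. Nidogens bind the gamma chain that LAMC1 encodes and link the laminin sheet to collagen IV and perlecan. FOXP2 is a forkhead transcription factor that mainly represses its targets, and CHIR inhibits glycogen synthase kinase 3, which stabilises β-catenin and switches on genes bound by TCF/LEF factors.

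FOXP2 counts matched the labels: the mean was 13481 ± 917 CPM with dhelix FOXP2 + CHIR, 15299 ± 983 CPM with WT FOXP2 + CHIR, 5319 ± 640.5 CPM with dhelix FOXP2 and 7076 ± 779 CPM with WT FOXP2, against 0.504 ± 0.462 CPM in CHIR cells and 0.898 ± 0.284 CPM in mock cells (SD, n = 5 each). CPM are counts per 1000000 counts of the scaled library. AXIN2, a standard β-catenin target, was at 145 ± 15.7 CPM in CHIR cells and 21.0 ± 1.01 CPM in mock cells. It was lower with FOXP2, at 62.4 ± 9.67 CPM with dhelix FOXP2 + CHIR and 49.2 ± 5.75 CPM with WT FOXP2 + CHIR. Without CHIR it was at 9.99 ± 0.805 CPM with dhelix FOXP2 and 8.11 ± 0.850 CPM with WT FOXP2. Libraries held 15755842 to 29466652 counts. In 3 groups 1 library stood apart from the rest by the chi-square per gene between replicates: CHIR replicate 1 was at 18.8 to 34.8 against the others of its group (1.78 to 4.14 among those), dhelix FOXP2 replicate 5 at 10.3 to 11.6 (1.57 to 3.24) and WT FOXP2 + CHIR replicate 4 at 4.83 to 7.69 (1.39 to 3.55). Of the osteoblast lineage markers SP7, DLX5, BGLAP, IBSP and COL1A2 were at or near 0 in every group, while RUNX2 and COL1A1 were present. The labels call the line epithelial too: of those markers KRT8 and KRT18 were abundant, and CDH1, KRT19, ESRP1 and GRHL2 averaged below 2 CPM in every group.

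Set per kilobase of exon, so that genes can be compared, LAMC1 was the most abundant of the 9 in mock cells at 74.2 CPM per kb. LAMB1 was at 48.9, NID1 at 47.2, LAMB2 at 34.7 and LAMA5 at 12.9 CPM per kb. LAMA4 at 4.09 and LAMA2 at 3.68 CPM per kb were lower again, and NID2 at 0.760 and LAMA3 at 0.168 CPM per kb were at the bottom. The gamma chain shared by most laminins was therefore the highest of the 9 genes and all 4 alpha chains lay below both beta chains. LAMA3 rested on 11 to 85 counts per library and NID2 on 11 to 137, and of the 9 genes these 2 had the widest standard errors in every comparison. LAMA4 rested on 31 to 98 outside mock cells. In the GENCODE annotation of GRCh38, NID2 shares 30.0% of its exon bases with RTRAF on the other strand. The strand setting of the counting is not given in the sources used here, so NID2 counts are uncertain; no other member shares more than 2.71% with a single gene.

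**Figure D1:**
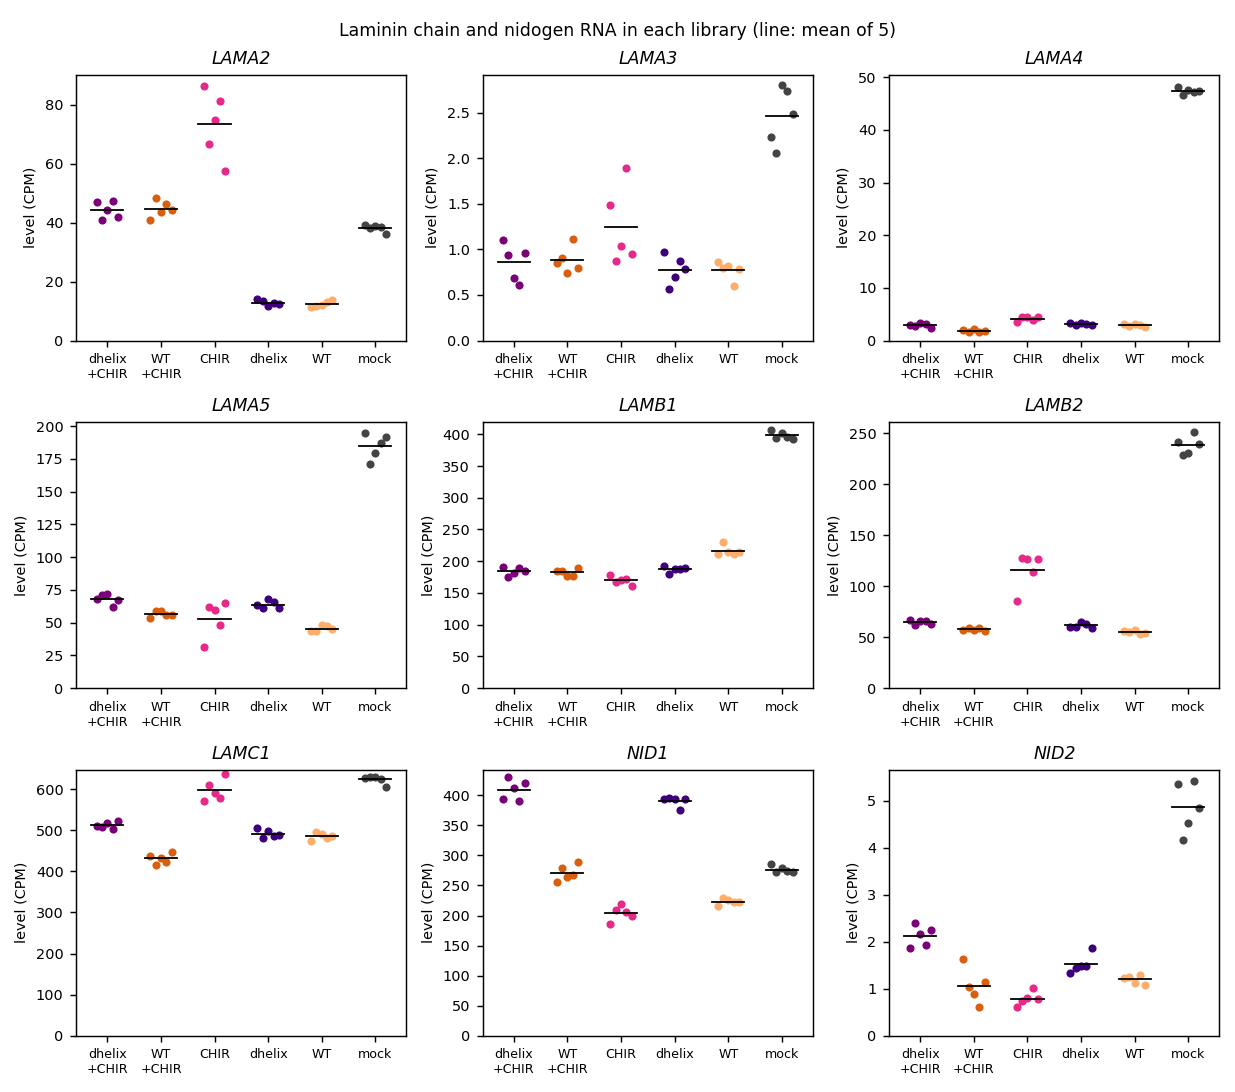
Level of each of the 9 genes in CPM (vertical axes, linear, each from 0) in every library (points) of the 6 groups, with the mean of 5 as a line. LAMA4 is high in mock cells and below 5 CPM in all 25 other libraries, LAMA2 is highest in CHIR cells and lowest in the groups with FOXP2 and no CHIR, and NID1 is highest in both dhelix FOXP2 groups.

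CHIR alone lowered 8 of the 9 genes and raised LAMA2. LAMA2 encodes the alpha chain of muscle and nerve basement membranes. LAMA2 was at 86.5, 66.7, 74.9, 81.3 and 57.4 CPM in CHIR cells and 39.0, 38.1, 38.8, 38.4 and 36.3 CPM in mock cells. Every CHIR library was above every mock library, and the CHIR libraries were spread more widely than the mock libraries. CHIR replicate 1, the library that stood apart, was the highest. When any 1 library was left out or the processing was changed, the log2 fold change of LAMA2 stayed between 0.84 and 0.99. The log2 fold change was 0.94 ± 0.07 (SE; adjusted p = 2.2e-14, edgeR quasi-likelihood test with Benjamini-Hochberg adjustment over all genes tested, used for every adjusted p below unless another test is named), a 1.92-fold rise.

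LAMA4, the alpha chain of blood vessel and mesenchymal basement membranes, showed the opposite. It was at 3.60, 4.54, 4.53, 3.92 and 4.40 CPM in CHIR cells and 48.2, 46.7, 47.5, 47.1 and 47.4 CPM in mock cells. The mock libraries lay within a narrow band far above all CHIR libraries. LAMA4 fell 11.3-fold (log2 fold change -3.50 ± 0.07, adjusted p = 3.5e-32), further than any other of the 9 genes.

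LAMA5, the alpha chain most widespread in adult epithelia and vessels, was at 31.4, 61.7, 59.8, 48.0 and 64.7 CPM in CHIR cells and 195, 171, 179.7, 187 and 191 CPM in mock cells. CHIR replicate 1, the library that stood apart, was the lowest, and all CHIR libraries were well below all mock libraries. The log2 fold change of LAMA5 was -1.80 ± 0.10 (adjusted p = 1.2e-16), and -1.69 without CHIR replicate 1. LAMB2, the beta chain of the neuromuscular junction and the kidney filter, was at 85.2, 128, 127, 113 and 126 CPM in CHIR cells and 242, 228, 231, 251 and 239.5 CPM in mock cells. Again CHIR replicate 1 was the lowest and no CHIR library reached a mock library. LAMB2 fell 2.06-fold (log2 fold change -1.04 ± 0.06, adjusted p = 1.8e-17), with a log2 fold change of -0.98 without CHIR replicate 1.

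LAMB1, the most common beta chain, averaged 169.8 ± 6.72 CPM in CHIR cells and 398 ± 5.85 CPM in mock cells (SD, n = 5 each; log2 fold change -1.23 ± 0.03). NID2 averaged 0.790 ± 0.142 CPM in CHIR cells and 4.86 ± 0.538 CPM in mock cells (log2 fold change -2.62 ± 0.15), and LAMA3, an alpha chain of epithelial anchoring laminins, 1.25 ± 0.433 CPM in CHIR cells and 2.46 ± 0.320 CPM in mock cells (log2 fold change -0.99 ± 0.17). NID1 averaged 204 ± 12.6 CPM in CHIR cells and 277 ± 5.71 CPM in mock cells, a smaller fall (log2 fold change -0.44 ± 0.04). LAMC1 hardly differed: its libraries lay at 571 to 637 CPM in CHIR cells and 605 to 631 CPM in mock cells and overlapped. Its log2 fold change of -0.06 ± 0.03 passed the threshold at an adjusted p of 0.046, and missed it without mock replicate 4 (0.075), without CHIR replicate 2 (0.0503) and in a fit that kept all low-count genes (0.13).

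All 9 genes thus passed the test with CHIR alone, where 74.1% of all genes did, and 8 were lower, where 35.3% of all genes were. A rise, as for LAMA2, was seen for 38.8% of all genes, and 9% rose at least 2-fold, which LAMA2 did not reach. A fall of at least 2-fold was seen for 5 of the 9 (LAMA4, NID2, LAMA5, LAMB1 and LAMB2), against 13% of all genes. The libraries of the 2 groups did not overlap for 8 of the 9, all but LAMC1, as for 57.7% of all genes. The median of the 9 was -1.04 on the log2 scale, against 0.02 over all 18485 genes tested. Among laminin chains outside the 9, LAMC3 changed by -0.22 ± 0.08 and LAMB3 by 0.21 ± 0.06 on the log2 scale with CHIR. CHIR replicate 1, the library that stood apart, was the lowest of its group for both. It was at 19.6 CPM for LAMC3 (26.7 to 33.7 CPM in the other CHIR libraries, 30.8 to 35.3 CPM in mock cells). For LAMB3 it was at 154 CPM (198 to 220 CPM in the other CHIR libraries, 167 to 180 CPM in mock cells). All 4 chains tested outside the 9 passed here, and 2 with the compared groups alone. Of 17 other basement membrane components tested 15 fell and 1 rose, among them HSPG2, the perlecan core protein, at -1.68 ± 0.09, and COL4A4, a collagen IV chain, at -1.74 ± 0.13. The median of these 17 was -0.69, against 0.02 over all genes tested. In these bulk samples fewer cells of a type and less RNA per cell cannot be told apart.

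The alpha chain that rose and the one that fell most both lie on the long arm of chromosome 6. Their promoters are shown beside that of NID1, the gene that most separated the 2 FOXP2 forms without CHIR (below), as the RefSeq sequence of GRCh38.p14 from 250 bases before to 50 bases after the transcription start, 5′ to 3′ on the gene's strand. Capitals mark the reverse complement of a searched motif, so the motif itself is on the other strand.
LAMA2 promoter (chr6:128882888-128883187, plus strand): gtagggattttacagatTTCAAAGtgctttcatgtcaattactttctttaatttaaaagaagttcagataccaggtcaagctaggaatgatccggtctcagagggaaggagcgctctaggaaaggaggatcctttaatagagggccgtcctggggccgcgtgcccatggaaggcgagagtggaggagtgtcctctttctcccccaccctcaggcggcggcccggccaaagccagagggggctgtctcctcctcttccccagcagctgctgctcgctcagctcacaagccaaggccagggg
LAMA4 promoter (chr6:112254518-112254817, minus strand): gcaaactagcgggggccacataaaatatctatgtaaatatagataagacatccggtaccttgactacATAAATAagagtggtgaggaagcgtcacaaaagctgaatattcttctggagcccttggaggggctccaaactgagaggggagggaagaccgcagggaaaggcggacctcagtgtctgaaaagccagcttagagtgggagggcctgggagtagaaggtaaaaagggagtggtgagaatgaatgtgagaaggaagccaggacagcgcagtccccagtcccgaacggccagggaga
NID1 promoter (chr1:236065041-236065340, minus strand): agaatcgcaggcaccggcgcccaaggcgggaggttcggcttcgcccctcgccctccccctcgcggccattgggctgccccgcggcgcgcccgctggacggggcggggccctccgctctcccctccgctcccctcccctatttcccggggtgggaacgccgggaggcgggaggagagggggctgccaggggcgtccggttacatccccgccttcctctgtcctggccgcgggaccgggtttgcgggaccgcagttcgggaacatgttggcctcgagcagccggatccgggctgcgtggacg
The search covered both strands. The TCF/LEF motif was CTTTGAA or its variant CTTTGAT. The forkhead motif was TATTTAT with its close variant TATTTGT, and a further forkhead motif was TGTTTAC. The AP-1 motif was TGANTCA. No match overlapped another in the 9 windows. LAMA2 held 1 TCF/LEF match, from -233 to -227, where 6.86% of 35116 promoters of the same length hold one of the TCF/LEF motifs. LAMA4 held 1 forkhead match, from -183 to -177, where 10.9% of promoters hold one of the forkhead motifs. LAMA3 held 2 AP-1 matches (7.71% of promoters hold at least 1) at a start that lies inside the gene. The letters of these motifs were not found in the windows of LAMA5, LAMB1, LAMB2, LAMC1, NID1 and NID2. LAMA4 and LAMA2 had the lowest GC content of the 9 promoters, at 51.3% and 55.3%, against 58.7% for LAMB2 and 82.7% for LAMA5, and 58.7% for the median promoter. These matches describe the letters of a window and were not tested as sites.

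WT FOXP2 without CHIR lowered all 9 genes, and dhelix FOXP2 without CHIR lowered the same genes except NID1, which rose. Both comparisons, like that of CHIR alone, use the same mock libraries. LAMA4 was at 3.34, 2.91, 3.40, 3.22 and 2.97 CPM with dhelix FOXP2 and 3.20, 2.74, 3.13, 3.01 and 2.51 CPM with WT FOXP2, against the mock values given above. The 2 FOXP2 groups overlapped each other and lay far below mock. LAMA4 fell 14.9-fold with dhelix FOXP2 (log2 fold change -3.90 ± 0.07, adjusted p = 5e-34) and 16.4-fold with WT FOXP2 (-4.04 ± 0.07, adjusted p = 6.7e-34).

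LAMA2, which rose with CHIR, fell with both forms of FOXP2. It was at 14.0, 13.4, 11.7, 12.6 and 12.4 CPM with dhelix FOXP2 and 11.2, 11.7, 12.2, 13.3 and 13.8 CPM with WT FOXP2, against 36.3 to 39.0 CPM in mock cells. The 2 FOXP2 groups again overlapped and every library of theirs was well below mock. Its log2 fold change was -1.57 ± 0.08 with dhelix FOXP2 and -1.61 ± 0.08 with WT FOXP2 (adjusted p = 1.4e-19 and 2.1e-19).

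LAMA5 was at 63.6, 60.8, 67.7, 65.7 and 60.9 CPM with dhelix FOXP2 and 43.5, 43.5, 48.2, 47.3 and 44.8 CPM with WT FOXP2, and LAMB2 at 59.8, 60.3, 65.3, 62.6 and 59.3 CPM with dhelix FOXP2 and 56.2, 55.0, 56.6, 52.8 and 53.7 CPM with WT FOXP2. For both genes all libraries with dhelix FOXP2 were above all libraries with WT FOXP2, and both groups were far below mock. The log2 fold change of LAMA5 was -1.54 ± 0.10 with dhelix FOXP2 and -2.02 ± 0.10 with WT FOXP2, and that of LAMB2 -1.95 ± 0.06 with dhelix FOXP2 and -2.12 ± 0.06 with WT FOXP2.

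NID1, the more abundant nidogen, was at 393, 395, 394, 376 and 394 CPM with dhelix FOXP2, 215, 229, 226, 222 and 222 CPM with WT FOXP2 and 285, 273, 279, 273 and 272 CPM in mock cells. The 3 groups did not overlap: all dhelix FOXP2 libraries lay above mock and all WT FOXP2 libraries below it. The log2 fold change of NID1 was 0.50 ± 0.04 with dhelix FOXP2 (adjusted p = 3.9e-15) and -0.31 ± 0.04 with WT FOXP2 (adjusted p = 9.7e-10), so it was the only one of the 9 called in opposite directions.

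Among the rest, LAMB1 averaged 187 ± 4.75 CPM with dhelix FOXP2 and 216 ± 7.75 CPM with WT FOXP2 (SD, n = 5 each), and fell with both (log2 fold changes -1.09 ± 0.03 and -0.88 ± 0.03). LAMC1 averaged 492 ± 9.89 CPM with dhelix FOXP2 and 485 ± 8.47 CPM with WT FOXP2, the smallest relative fall of those that fell with both (log2 fold changes -0.34 ± 0.03 and -0.36 ± 0.03). NID2 averaged 1.52 ± 0.200 CPM with dhelix FOXP2 and 1.2 ± 0.0859 CPM with WT FOXP2, and LAMA3 0.777 ± 0.158 CPM with dhelix FOXP2 and 0.772 ± 0.0990 CPM with WT FOXP2. Both low genes fell: the log2 fold change of NID2 was -1.68 ± 0.13 with dhelix FOXP2 and -2.01 ± 0.14 with WT FOXP2, and that of LAMA3 -1.67 ± 0.17 with dhelix FOXP2 and -1.69 ± 0.18 with WT FOXP2.

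With dhelix FOXP2 all 9 genes passed the test, where 80.5% of all genes did, and 8 were lower, where 40.9% of all genes were. With WT FOXP2 all 9 passed, where 81.6% of all genes did, and all 9 were lower, where 41.6% of all genes were. Higher genes made up 39.6% of all with dhelix FOXP2, where NID1 was the only 1 of the 9, and 39.9% with WT FOXP2, where none of the 9 was. The libraries did not overlap mock for any of the 9 with either form, as for 73.2% of all genes with dhelix FOXP2 and 73% with WT FOXP2. A rise of at least 2-fold, seen for 12.8% and 13.4% of all genes, was reached by none of the 9. A fall of at least 2-fold was seen for 7 of the 9 with dhelix FOXP2 (16.7% of all genes) and for 6 of the 9 with WT FOXP2 (19.2% of all genes). LAMB1 made the difference between the counts. The median of the 9 was -1.57 on the log2 scale, against -0.02 over all 18485 genes tested, with dhelix FOXP2, and -1.69 on the log2 scale, against -0.02 over all 18485 genes tested, with WT FOXP2.

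**Figure D2:**
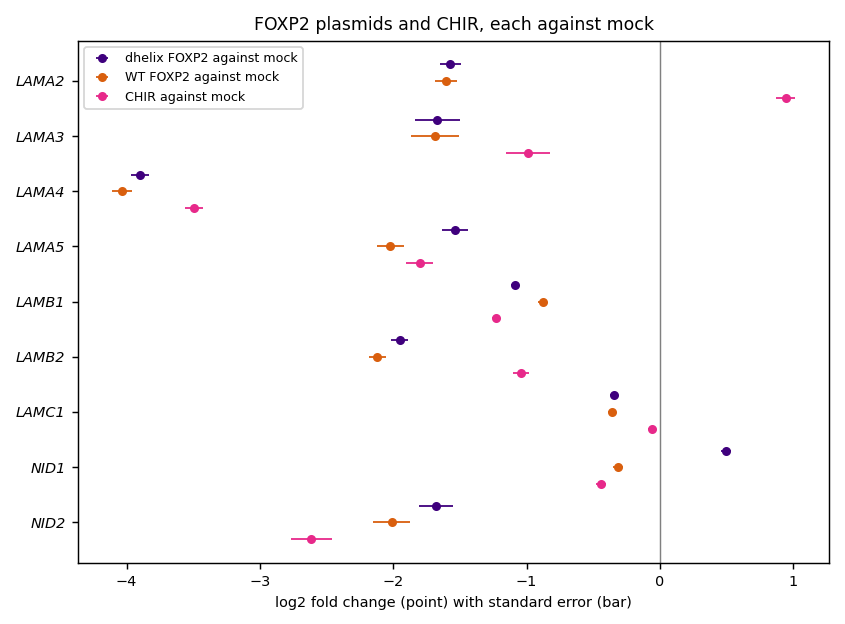
Log2 fold change (horizontal axis; points, with standard errors as bars) of the 9 genes for dhelix FOXP2, WT FOXP2 and CHIR, each against the same mock libraries. LAMA4 lies at -3.50 or below in all 3, LAMA2 is above 0 with CHIR only, and NID1 is above 0 with dhelix FOXP2 only.

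A beta chain outside the 9 moved the other way. LAMB3, the beta chain of epithelial anchoring laminins, averaged 623 CPM with dhelix FOXP2 and 756 CPM with WT FOXP2, against 174 CPM in mock cells. LAMB3 rose with both (log2 fold changes 1.84 ± 0.06 and 2.12 ± 0.06; adjusted p = 7.2e-24 and 1.3e-25).

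Chain shares, chosen for calculation after these values were seen, put the genes on 1 scale: each chain's CPM per kb of exon as a share of the sum over the chains of its class. LAMB1 and LAMB2 together made up 19.4% ± 0.944 of beta chain RNA with dhelix FOXP2 and 17.7% ± 1.03 with WT FOXP2, against 69.2% ± 0.398 in mock cells (SD, n = 5 each). The groups with FOXP2 did not overlap mock, and LAMB3 held nearly all of the rest. LAMA2, LAMA3, LAMA4 and LAMA5 together made up 22.8% ± 0.824 of alpha chain RNA with dhelix FOXP2 and 16.0% ± 0.499 with WT FOXP2, against 49.9% ± 0.876 in mock cells, the rest being LAMA1. With CHIR alone the shares were 47.0% ± 2.46 for LAMB1 and LAMB2 and 32.4% ± 0.667 for the 4 alpha chains, both below mock.

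**Figure D3:**
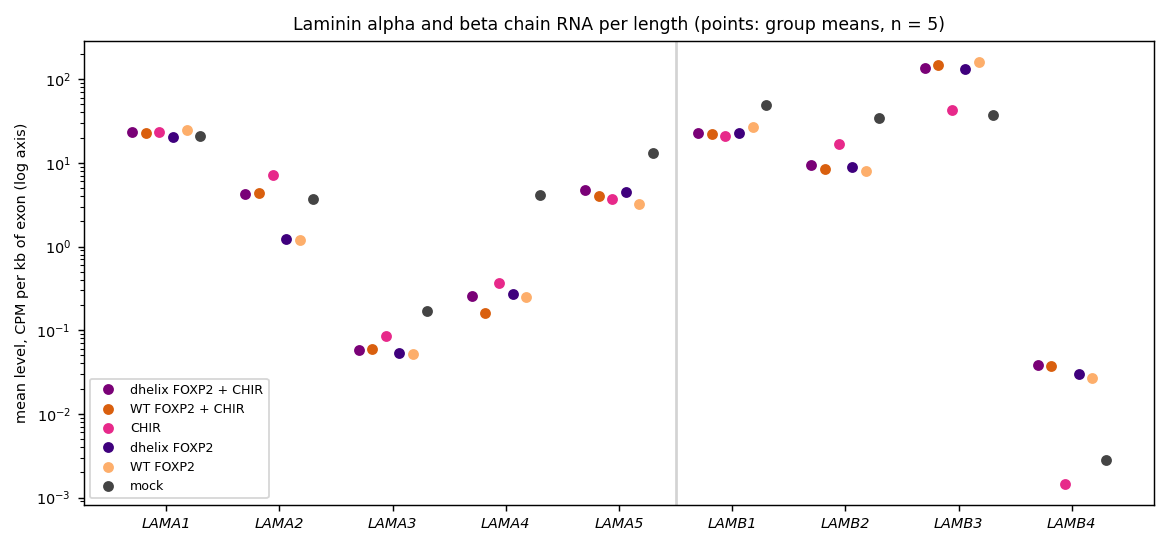
Mean level of the laminin alpha and beta chain genes in CPM per kb of exon (vertical axis, log scale; points are means of 5 libraries) in the 6 groups, with alpha and beta chains set apart by a line. LAMB3 lies above LAMB1 and LAMB2 in every group but mock, LAMA1 differs little between groups, and LAMB4, near 0 throughout, was not among the genes tested.

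The genes around the laminins moved in several directions. Of 9 laminin receptor genes, 2 rose and 6 fell with dhelix FOXP2, 2 rose and 6 fell with WT FOXP2, and 3 rose and 6 fell with CHIR. Their median log2 fold changes were -0.66, -0.68 and -0.86, against the medians of all genes given above. ITGA6, the alpha subunit of the main epithelial laminin integrins, rose with dhelix FOXP2 (1.93 ± 0.05 on the log2 scale) and with WT FOXP2 (2.06 ± 0.05), while its partner ITGB4 fell (-2.09 ± 0.09 and -2.95 ± 0.10). With CHIR, ITGA2, an integrin subunit for collagen and laminin, rose by 2.20 ± 0.11 on the log2 scale and BCAM, a receptor of LAMA5-containing laminins, changed by -1.88 ± 0.09. Of 17 other basement membrane components, 4 rose and 13 fell with dhelix FOXP2 (median -0.85) and 2 rose and 13 fell with WT FOXP2 (median -1.19). COL4A4 changed by -2.98 ± 0.14 with dhelix FOXP2 and -3.24 ± 0.15 with WT FOXP2, and FREM2, a matrix protein of the epidermal basement membrane, by -2.49 ± 0.06 and -3.07 ± 0.07.

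Genes for crosslinking and proteolysis of the basement membrane fell in most cases too. Of 10 tested, 8 fell and 1 rose with dhelix FOXP2, 7 fell and 1 rose with WT FOXP2, and 7 fell and 2 rose with CHIR, with medians of -0.69, -0.79 and -0.73 on the log2 scale. MMP2, a gelatinase that cuts collagen IV, averaged 201 CPM with dhelix FOXP2 and 214 CPM with WT FOXP2, against 933 CPM in mock cells. ADAMTS1, a secreted protease, changed by 3.48 ± 0.08 on the log2 scale with CHIR. The 12 genes of dystroglycan glycosylation found in the file, of 16 listed, split evenly: 5 rose and 5 fell with dhelix FOXP2, 4 rose and 4 fell with WT FOXP2, and 4 rose and 4 fell with CHIR, with medians of -0.06, -0.03 and 0.03.

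Markers of cell types moved with the same groups. The summed level of 10 osteoblast lineage markers was 285 to 307 CPM with dhelix FOXP2, 292 to 312 CPM with WT FOXP2 and 295 to 449.5 CPM with CHIR, against 1332 to 1454 CPM in mock cells, most of it from COL1A1. Of the 5 tested, 2 were higher and 2 lower with dhelix FOXP2, 3 higher and 2 lower with WT FOXP2 and 1 higher and 3 lower with CHIR. The 10 smooth muscle and pericyte markers summed to 353 to 364 CPM with dhelix FOXP2, 280.1 to 316 CPM with WT FOXP2 and 95.9 to 168 CPM with CHIR, against 209.7 to 224 CPM in mock cells. CSPG4, a pericyte proteoglycan, carried most of the difference, at 250.1 CPM with dhelix FOXP2 and 194 CPM with WT FOXP2, against 78.5 CPM in mock cells. PDGFRB, a pericyte growth factor receptor, went the other way, at 26.8 CPM with dhelix FOXP2 and 20.6 CPM with WT FOXP2, against 67.2 CPM in mock cells. Of the 9 tested, 3 were higher and 4 lower with dhelix FOXP2, 4 higher and 4 lower with WT FOXP2 and 3 higher and 4 lower with CHIR. The 10 epithelial markers summed to 650.5 to 698 CPM with dhelix FOXP2, 644 to 679 CPM with WT FOXP2 and 342 to 427 CPM with CHIR, against 403 to 446 CPM in mock cells. Here KRT18 carried the difference, at 448 CPM with dhelix FOXP2 and 481 CPM with WT FOXP2, against 169.5 CPM in mock cells, while KRT14, a basal keratin, was at 0.575 CPM with dhelix FOXP2 and 0.242 CPM with WT FOXP2, against 24.8 CPM in mock cells. Of the 8 tested, 3 were higher and 4 lower with dhelix FOXP2, 3 higher and 5 lower with WT FOXP2 and 2 higher and 2 lower with CHIR. The 9 endothelial markers summed to 88.6 to 92.1 CPM with dhelix FOXP2, 73.2 to 84.5 CPM with WT FOXP2 and 33.1 to 55.2 CPM with CHIR, against 68.2 to 82.0 CPM in mock cells. Of the 8 tested, 4 were higher and 3 lower with dhelix FOXP2, 4 higher and 4 lower with WT FOXP2 and 1 higher and 6 lower with CHIR. The 10 leukocyte markers summed to 13.8 to 15.6 CPM with dhelix FOXP2 + CHIR, 18.6 to 21.0 CPM with WT FOXP2 + CHIR, 2.64 to 3.45 CPM with CHIR, 11.0 to 12.6 CPM with dhelix FOXP2, 13.3 to 14.3 CPM with WT FOXP2 and 0.930 to 1.55 CPM in mock cells. ITGAM, an integrin subunit of myeloid cells, averaged 5.59 CPM with dhelix FOXP2 and 10.9 CPM with WT FOXP2, against 0.123 CPM in mock cells. CD3D, a subunit of the T cell receptor complex, averaged 5.49 CPM with dhelix FOXP2 and 2.13 CPM with WT FOXP2, against 0.0688 CPM in mock cells. PTPRC, the pan-leukocyte antigen, averaged 0.133 CPM with dhelix FOXP2 and 0.102 CPM with WT FOXP2, against 0.301 CPM in mock cells. The part of these shifts in the laminin and nidogen values was not tested.

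With CHIR, FOXP2 changed the 9 genes in both directions, and LAMA2, LAMA3, LAMA4, LAMA5, LAMB1, LAMB2 and NID2 by less than without it. LAMA2 was at 47.0, 41.0, 44.1, 47.2 and 41.7 CPM with dhelix FOXP2 + CHIR and 40.7, 48.2, 43.6, 46.4 and 44.4 CPM with WT FOXP2 + CHIR, against 57.4 to 86.5 CPM in CHIR cells. Both FOXP2 groups overlapped each other and lay below all CHIR libraries. The log2 fold change of LAMA2 against CHIR was -0.73 ± 0.07 with dhelix FOXP2 + CHIR and -0.72 ± 0.07 with WT FOXP2 + CHIR (adjusted p = 2e-11 and 2e-11).

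LAMA4 was at 3.02, 2.70, 3.35, 3.14 and 2.48 CPM with dhelix FOXP2 + CHIR and 2.07, 1.56, 2.27, 1.73 and 1.77 CPM with WT FOXP2 + CHIR, against 3.60 to 4.54 CPM in CHIR cells. The 3 groups did not overlap, with WT FOXP2 + CHIR lowest. LAMA4 fell with both (-0.51 ± 0.10 and -1.15 ± 0.11 on the log2 scale). LAMB2 fell too, to a mean of 64.7 ± 2.21 CPM with dhelix FOXP2 + CHIR and 58.0 ± 1.30 CPM with WT FOXP2 + CHIR, against 116 ± 18.1 CPM in CHIR cells (log2 fold changes -0.84 ± 0.06 and -1.0 ± 0.06). LAMC1 averaged 512 ± 8.17 CPM with dhelix FOXP2 + CHIR and 431 ± 11.9 CPM with WT FOXP2 + CHIR, against 597 ± 26.7 CPM in CHIR cells (log2 fold changes -0.22 ± 0.03 and -0.47 ± 0.03), and fell with both.

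NID1 was at 394, 431, 412, 391 and 421 CPM with dhelix FOXP2 + CHIR, 256, 279, 264, 268 and 289.5 CPM with WT FOXP2 + CHIR and 185, 209, 219.7, 206 and 199.98 CPM in CHIR cells. No library of 1 group reached another group, and CHIR cells were lowest. NID1 rose 2.01-fold with dhelix FOXP2 + CHIR (log2 fold change 1.01 ± 0.04, adjusted p = 9.8e-24) and 1.33-fold with WT FOXP2 + CHIR (0.41 ± 0.04, adjusted p = 1.5e-12). NID2 lay at 1.86 to 2.40 CPM with dhelix FOXP2 + CHIR and 0.613 to 1.62 CPM with WT FOXP2 + CHIR, against 0.616 to 1.01 CPM in CHIR cells. With dhelix FOXP2 + CHIR the NID2 libraries were all above CHIR (log2 fold change 1.43 ± 0.18, adjusted p = 8.3e-09), while with WT FOXP2 + CHIR they overlapped it (0.47 ± 0.20, adjusted p = 0.033). That last call of NID2 was lost without WT FOXP2 + CHIR replicate 1 (log2 fold change 0.27, adjusted p = 0.30), CHIR replicate 1 (0.077) or CHIR replicate 2 (0.054). It was also lost with no filter on low counts and with the compared groups alone.

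LAMB1 rose slightly with both, to 184 ± 6.51 CPM with dhelix FOXP2 + CHIR and 182 ± 5.45 CPM with WT FOXP2 + CHIR, against 169.8 ± 6.72 CPM in CHIR cells (log2 fold changes 0.12 ± 0.03 and 0.10 ± 0.03). LAMA5 averaged 68.0 ± 4.07 CPM with dhelix FOXP2 + CHIR and 56.7 ± 2.07 CPM with WT FOXP2 + CHIR, against 53.1 ± 13.7 CPM in CHIR cells. It passed the test with dhelix FOXP2 + CHIR (0.36 ± 0.10, adjusted p = 0.0023) and missed it with WT FOXP2 + CHIR (0.10 ± 0.10, adjusted p = 0.396). Without CHIR replicate 1 the log2 fold changes of LAMA5 were 0.23 (adjusted p = 0.00048) and -0.02 (adjusted p = 0.78). LAMA3 averaged 0.858 ± 0.207 CPM with dhelix FOXP2 + CHIR and 0.881 ± 0.144 CPM with WT FOXP2 + CHIR, against 1.25 ± 0.433 CPM in CHIR cells. Its calls (log2 fold changes -0.52 ± 0.21 and -0.50 ± 0.20, adjusted p = 0.024 and 0.026) depended on single libraries and on the processing. Without CHIR replicate 4 the adjusted p was 0.20 and 0.22, and without CHIR replicate 1 it was 0.095 and 0.11. The call of LAMA3 with dhelix FOXP2 + CHIR was also lost without replicate 3 or 4 of that group, and the call with WT FOXP2 + CHIR without replicate 1, 3 or 5 of that group (adjusted p = 0.062 to 0.11 over these 5). Both calls were lost with no filter on low counts, with the compared groups alone and without the 3 libraries that stood apart. The call with WT FOXP2 + CHIR was lost in the DESeq2 Wald test too.

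With dhelix FOXP2 + CHIR all 9 genes passed, where 75.9% of all genes did, with 5 lower (38.9% of all genes) and 4 higher (37%). With WT FOXP2 + CHIR 8 of the 9 passed, where 78.4% of all genes did, with 5 lower (40.2% of all genes) and 3 higher (38.2%). Without CHIR replicate 1 these totals were 8 and 6. The libraries did not overlap CHIR for 6 of the 9 with dhelix FOXP2 + CHIR (56.6% of all genes) and 5 of the 9 with WT FOXP2 + CHIR (60.7%). NID1 and NID2 rose at least 2-fold with dhelix FOXP2 + CHIR (12.7% of all genes), and none of the 9 fell as far (9.22%). With WT FOXP2 + CHIR, LAMA4 was the only 1 of the 9 to fall at least 2-fold (12% of all genes), and none rose as far (13.8%). The median of the 9 was -0.22 on the log2 scale, against -0.03 over all 18485 genes tested, with dhelix FOXP2 + CHIR, and -0.47 on the log2 scale, against -0.03 over all 18485 genes tested, with WT FOXP2 + CHIR. LAMB3 rose here too (log2 fold changes 1.66 ± 0.06 and 1.77 ± 0.06). Of the 17 other basement membrane components 8 fell and 5 rose with dhelix FOXP2 + CHIR and 10 fell and 4 rose with WT FOXP2 + CHIR. COL4A5, a collagen IV chain, was among those that fell (-2.14 ± 0.08 and -2.79 ± 0.09), and FBLN2, an elastic fibre and basement membrane protein, among those that rose, averaging 1.83 CPM with dhelix FOXP2 + CHIR and 2.6 CPM with WT FOXP2 + CHIR, against 0.179 CPM in CHIR cells (log2 fold changes 3.31 ± 0.31 and 3.82 ± 0.28). Of the 9 receptor genes 6 fell and 2 rose with dhelix FOXP2 + CHIR and 7 fell and 1 rose with WT FOXP2 + CHIR, with ITGA1 changing by -0.89 ± 0.09 and -1.31 ± 0.09 and BCAM by -0.77 ± 0.10 and -1.14 ± 0.10.

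**Figure D4:**
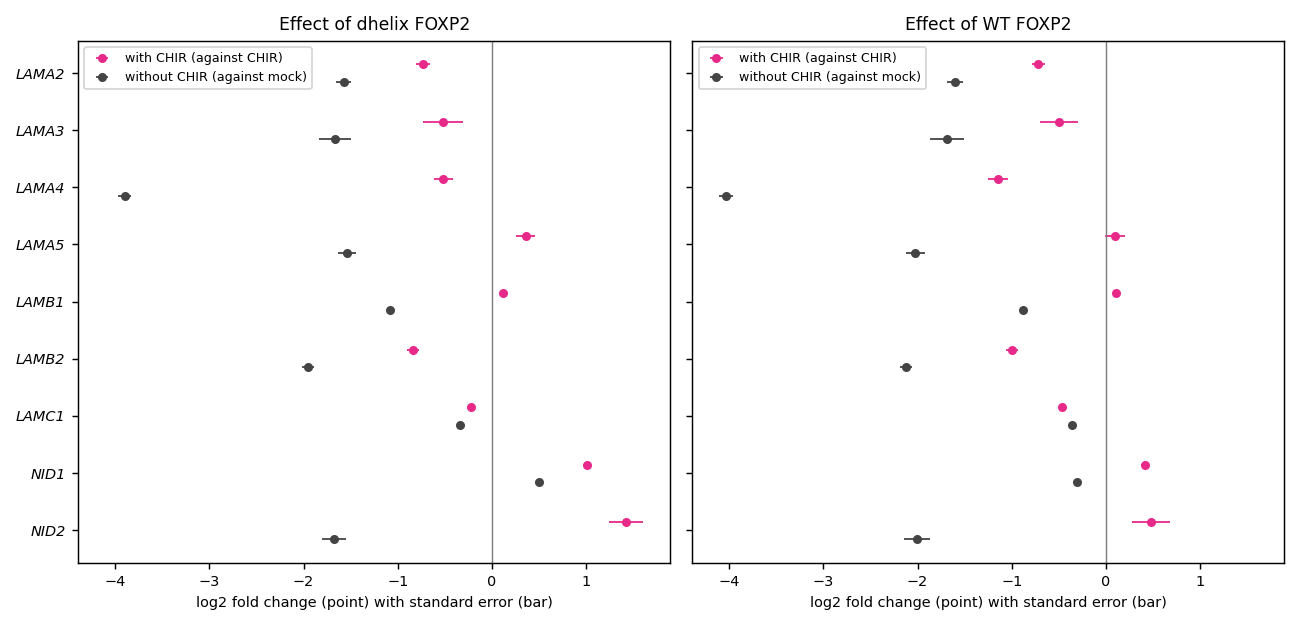
Log2 fold change (horizontal axis; points, with standard errors as bars) of the 9 genes for dhelix FOXP2 (left) and WT FOXP2 (right), with CHIR (against CHIR) and without CHIR (against mock). For 8 genes with WT FOXP2 and for all 9 with dhelix FOXP2 the point with CHIR lies to the right of the point without, most of all for LAMA4, NID2 and LAMA5.

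Tests of the difference itself gave that shift for nearly every gene. The interaction of dhelix FOXP2 with CHIR, which is the effect with CHIR minus the effect without it, passed for all 9 genes and was positive for all 9, where 64.8% of all genes passed and 31.2% were positive. That of WT FOXP2 with CHIR passed for all 9 and was positive for 8, where 65.6% of all genes passed and 30.7% were positive. The interaction of LAMA4 was 3.38 ± 0.13 with dhelix FOXP2 and 2.88 ± 0.14 with WT FOXP2 on the log2 scale. That of NID2 was 3.10 ± 0.22 with dhelix FOXP2 and 2.49 ± 0.25 with WT FOXP2, and that of LAMA5 1.89 ± 0.14 with dhelix FOXP2 and 2.12 ± 0.14 with WT FOXP2. An interaction of at least 1 on the log2 scale was reached by 6 of the 9 with dhelix FOXP2 (14.3% of all genes) and 5 of the 9 with WT FOXP2 (15% of all genes). LAMC1 was the exception: 0.12 ± 0.04 with dhelix FOXP2 and -0.11 ± 0.04 with WT FOXP2, where the second (adjusted p = 0.0203) was lost when any 1 of 11 libraries was left out, with an adjusted p of up to 0.21. That second call was also lost with no filter on low counts and with a filter on a mean of at least 1 CPM. It was lost too with FOXP2 left out of library sizes (adjusted p up to 0.45 over these settings).

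The same interactions can be read as effects of CHIR. CHIR moved LAMA3, LAMA4, LAMA5, LAMB1, LAMB2, NID1 and NID2 less in size in cells with either FOXP2 form than in mock cells. LAMA2 was moved more. LAMA5 and NID1 fell with CHIR in mock cells and rose with it in WT FOXP2 cells (0.32 ± 0.10 and 0.28 ± 0.04). LAMA2 was 3.45-fold higher with dhelix FOXP2 + CHIR than with dhelix FOXP2 (log2 fold change 1.79 ± 0.08, adjusted p = 2.1e-20) and 3.56-fold higher with WT FOXP2 + CHIR than with WT FOXP2 (1.83 ± 0.08, adjusted p = 2.1e-20). No library with CHIR overlapped a library without it in either pair. LAMA4 changed by -0.11 ± 0.10 in dhelix FOXP2 cells, which missed the threshold (adjusted p = 0.38), and by -0.61 ± 0.11 in WT FOXP2 cells, which passed it. LAMB2 missed it in both (0.07 ± 0.06 and 0.08 ± 0.07, adjusted p = 0.33 and 0.28), as did LAMA3 (0.16 ± 0.21 and 0.20 ± 0.22, adjusted p = 0.54 and 0.44).

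In dhelix FOXP2 cells 2 of the 9 genes passed with CHIR, LAMA2 and NID2 (0.49 ± 0.15), where 63.2% of all genes passed. Of all genes 34.1% were higher and 29.1% lower, and the libraries did not overlap for 2 of the 9 and 53.3% of all. LAMA2 was the only 1 of the 9 to rise at least 2-fold in either pair, as 8.55% of all genes did in dhelix FOXP2 cells and 9.76% in WT FOXP2 cells, and none fell as far (3.29% and 3.35%). In WT FOXP2 cells 6 of the 9 passed, where 64.9% of all genes did: LAMA2, LAMA5 (0.32 ± 0.10) and NID1 (0.28 ± 0.04) were higher, and LAMA4, LAMB1 (-0.25 ± 0.03) and LAMC1 (-0.17 ± 0.03) lower. Of all genes 34.8% were higher and 30.2% lower, and the libraries did not overlap for 6 of the 9 and 53.8% of all. LAMC1 at 0.06 ± 0.03 and NID1 at 0.07 ± 0.04 were close to 0 in dhelix FOXP2 cells. FOXP2 itself was 2.53-fold higher with CHIR in dhelix FOXP2 cells and 2.16-fold higher in WT FOXP2 cells, and the part of this in the values above was not tested.

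The form without residues 264 to 272 differed from WT FOXP2 for 4 of the 9 genes without CHIR and for 5 with it. NID1 and LAMA5 passed the test in both, LAMA5 only narrowly with CHIR. Without CHIR, NID1 was 1.75-fold higher with dhelix FOXP2 than with WT FOXP2 (log2 fold change 0.81 ± 0.04, adjusted p = 4.5e-19). LAMA5 was also higher (0.49 ± 0.10, adjusted p = 0.00031), LAMB1 was lower (-0.21 ± 0.03, adjusted p = 3.1e-06), and LAMB2 slightly higher (0.17 ± 0.06, adjusted p = 0.0403). The call of LAMB2 was lost without WT FOXP2 replicate 4 (adjusted p = 0.091) or dhelix FOXP2 replicate 3 (0.066). LAMA2 (0.03 ± 0.09), LAMA3 (0.02 ± 0.21), LAMA4 (0.14 ± 0.10), LAMC1 (0.02 ± 0.03) and NID2 (0.33 ± 0.16) missed the threshold, at adjusted p from 0.11 to 0.96. In all 4 of the 9 passed, where 35.6% of all genes did, 3 of them higher (16.9% of all genes) and 1 lower (18.7%). None differed 2-fold, as 1.87% of all genes did upward and 0.698% downward. The libraries did not overlap for 5 of the 9 and 29.9% of all.

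With CHIR, 5 of the 9 were higher with dhelix FOXP2 + CHIR than with WT FOXP2 + CHIR and none was lower, where 30.6% of all genes passed, 16.6% higher and 13.9% lower. NID1 was again among them, 1.51-fold higher (log2 fold change 0.60 ± 0.04, adjusted p = 5.8e-15). NID2 was 1.93-fold higher (0.95 ± 0.16, adjusted p = 2.3e-05), LAMA4 1.55-fold higher (0.64 ± 0.11, adjusted p = 4.5e-05) and LAMC1 1.19-fold higher (0.25 ± 0.03, adjusted p = 1.9e-08). The libraries of the 2 groups did not overlap for 6 of the 9, NID1, NID2, LAMA4 and LAMC1 among them, as for 24.5% of all genes. None differed 2-fold, as 1.53% of all genes did upward and 0.628% downward. LAMA5 passed narrowly (0.26 ± 0.10, adjusted p = 0.048) and missed the threshold when any 1 of 9 of the 10 libraries was left out (adjusted p up to 0.11). LAMB2 missed it (0.16 ± 0.07, adjusted p = 0.064), as did LAMA2 (-0.01 ± 0.07), LAMA3 (-0.02 ± 0.22) and LAMB1 (0.01 ± 0.03), with adjusted p of 0.79 or more for these 3.

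**Figure D5:**
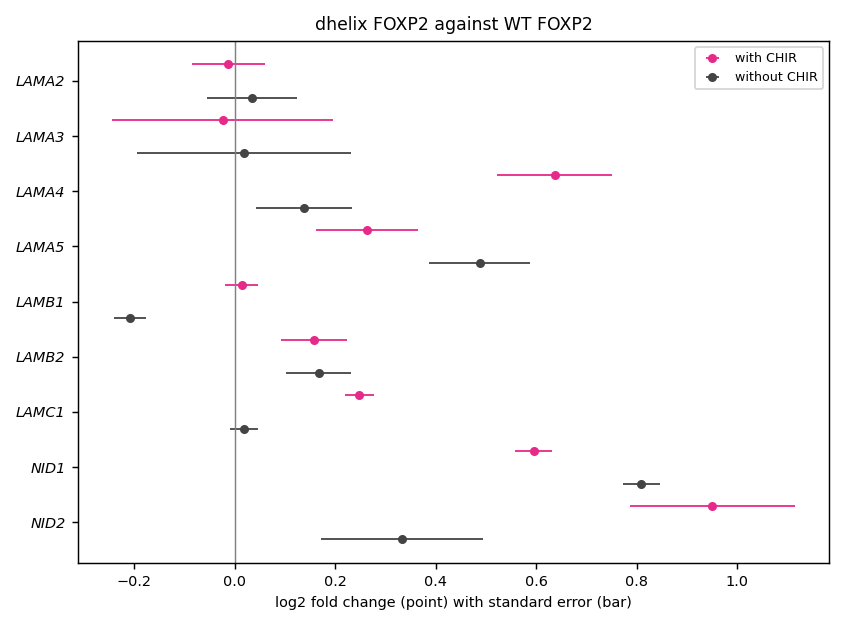
Log2 fold change of dhelix FOXP2 against WT FOXP2 (horizontal axis; points, with standard errors as bars) of the 9 genes, with CHIR and without it. NID1 lies at 0.60 with CHIR and 0.81 without, LAMA2 and LAMA3 lie near 0 in both, and LAMA4 and LAMC1 are further to the right with CHIR.

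The difference between the 2 forms depended on CHIR for 4 of the 9 genes, where 14.2% of all genes passed. The interaction of the helix deletion with CHIR was 0.23 ± 0.04 for LAMC1 (adjusted p = 0.00015), 0.22 ± 0.05 for LAMB1 (adjusted p = 0.00082) and -0.21 ± 0.05 for NID1 (adjusted p = 0.0039). For LAMA4 it was 0.50 ± 0.15 (adjusted p = 0.039), and that call was lost when any 1 of 15 libraries was left out (adjusted p up to 0.13), and without the 3 libraries that stood apart (0.082). For NID2 it was 0.62 ± 0.23 and missed the threshold (adjusted p = 0.0699), but passed without WT FOXP2 + CHIR replicate 1 (0.85, adjusted p = 0.013). When no gene was filtered out, LAMA4, LAMC1 (adjusted p = 0.084) and LAMB1 (0.14) missed it as well. LAMA5 missed it at -0.22 ± 0.14 (adjusted p = 0.33), and passed when no gene was filtered out (-0.29, adjusted p = 0.0034), with the compared groups alone (-0.24, 0.0012) and without the 3 libraries that stood apart (-0.27, 0.016).

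FOXP2 RNA was not equal between the forms: its log2 fold change was -0.41 ± 0.08 without CHIR (adjusted p = 0.00034) and -0.18 ± 0.08 with CHIR (adjusted p = 0.11), lower with dhelix FOXP2 in both. Its part in the differences of NID1, LAMA5 and the other genes was not tested. LAMB3 at -0.28 ± 0.06 and LAMA1 at -0.27 ± 0.03 were lower with dhelix FOXP2 than with WT FOXP2 without CHIR. Of the 17 other basement membrane components 6 were higher and none lower without CHIR, with SMOC2, a matricellular protein, at 0.77 ± 0.09 and COL18A1, the collagen that yields endostatin, at 0.75 ± 0.10. With CHIR 10 were higher and 1 lower, with FREM2 at 0.91 ± 0.07 and COL4A4 at 0.84 ± 0.24. Of the 9 receptor genes 3 were higher and 2 lower without CHIR, and 5 higher and none lower with CHIR.

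Put in order of their group means, the genes fell into unlike patterns. For LAMA2 the order was CHIR, WT FOXP2 + CHIR, dhelix FOXP2 + CHIR, mock, dhelix FOXP2 and WT FOXP2, with overlap between neighbours only within the 2 pairs that differ by the deletion. For NID1 the order was dhelix FOXP2 + CHIR, dhelix FOXP2, mock, WT FOXP2 + CHIR, WT FOXP2 and CHIR, where dhelix FOXP2 + CHIR overlapped dhelix FOXP2, mock overlapped WT FOXP2 + CHIR, and WT FOXP2 overlapped CHIR. The other 7 genes were all highest in mock cells. The ratio of the highest to the lowest group mean was 25.2 for LAMA4, 6.15 for NID2, 5.90 for LAMA2, 4.34 for LAMB2, 4.07 for LAMA5, 3.19 for LAMA3, 2.35 for LAMB1, 2.01 for NID1 and 1.45 for LAMC1. Behind mock, LAMA4 came in the order CHIR, dhelix FOXP2, dhelix FOXP2 + CHIR, WT FOXP2 and WT FOXP2 + CHIR, where the 3 in the middle overlapped as neighbours and CHIR and WT FOXP2 + CHIR stood clear. LAMB2 had CHIR second and behind it dhelix FOXP2 + CHIR, dhelix FOXP2, WT FOXP2 + CHIR and WT FOXP2, where neighbours overlapped, whereas LAMB1 had WT FOXP2 second and LAMA5 had both dhelix FOXP2 groups next after mock.

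Across the 30 libraries, log2 CPM of LAMB2 and LAMA4 had a Pearson correlation of 0.933, the closest pairing among the 9, while NID1 correlated with LAMB2 at -0.237 and with its paralog NID2 at 0.396. These values describe libraries that share groups and treatments, and carry no p. The single most similar gene outside the 9, among 15134 with a mean of at least 1 CPM, was LRP1 for LAMB2 (r = 0.993), ATXN1 for LAMA2 (0.991), RGMA for LAMA4 (0.991), PDGFRA for LAMB1 (0.985), CYHR1 for LAMA5 (0.981), ARHGAP35 for LAMC1 (0.963), OLFM2 for NID2 (0.940), PROM2 for NID1 (0.936) and KLHL3 for LAMA3 (0.924). LRP1, an endocytic receptor, averaged 163 CPM with dhelix FOXP2 + CHIR, 134 CPM with WT FOXP2 + CHIR, 273 CPM with CHIR, 163 CPM with dhelix FOXP2, 143 CPM with WT FOXP2 and 624 CPM in mock cells. PROM2, a membrane glycoprotein, averaged 5.53 CPM with dhelix FOXP2 + CHIR, 2.63 CPM with WT FOXP2 + CHIR, 2.05 CPM with CHIR, 5.37 CPM with dhelix FOXP2, 1.97 CPM with WT FOXP2 and 2.36 CPM in mock cells, and so was highest in both dhelix FOXP2 groups, as NID1 was.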

How the data were processed

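RNA from 30 U2OS samples (6 groups of 5) was sequenced as stranded, paired-end mRNA libraries, per the labels' protocols. The authors deposited 1 table of whole-number gene counts, not normalised, with Ensembl IDs and symbols. Tools named in the submitters' processing notes are DESeq2, Subread, featureCounts and STAR (2.6.1a), with the build hg19. Not given in the sources used here are the annotation, the counter's strand setting and the unit counted (reads or fragments). The 9 genes and the gene lists were chosen with earlier results of these data known.

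From these counts, 18485 of 57373 genes passed edgeR's expression filter and held 99.9% of the counts. Library sizes were scaled by TMM. The model was edgeR 4.0.16 under R 4.3.3 (robust quasi-likelihood test, all 30 libraries, 1 mean per group, no block). There were 9 comparisons of groups and 3 interactions, each adjusted by Benjamini-Hochberg over all genes tested, with a threshold of 0.05. A standard error is the log2 fold change divided by the square root of F. CPM use the scaled library sizes, and similarity used log2 CPM with a prior count of 2. Exon lengths and overlaps came from GENCODE on GRCh38, promoters from RefSeq on GRCh38.p14. Library totals of 15755842 to 29466652 and a common biological coefficient of variation of 5.62% set the precision.

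The named genes are the 9 in every comparison, FOXP2 and AXIN2, the 2 most changed called genes with a mean of at least 1 CPM per list in a comparison, and the most similar gene for each of the 9; the other genes named were chosen after their values were seen. The script was tested on simulated data. Alternatives were DESeq2 (version 1.42.0) size factors and its Wald test, 2 other filters, FOXP2 left out of library sizes, the compared groups alone, a replicate block, each library left out in turn, and 3 libraries that stood apart left out together. Every pair of replicates differed by more than counting error (chi-square per gene at least 1.39), so none was merged. Replicate numbers were not treated as pairs, since the labels state none and correlations between same-numbered libraries were weak.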

Additional observations from a re-analysis of the deposited data

Results flagged for a closer look

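In 4 of 54 sets of 5 libraries (9 genes in 6 groups), 1 library lay further from the nearest of the others than Dixon's 95% limit allows; chance gives about 1 in 20 sets. These were LAMA3 in WT FOXP2 replicate 4 (0.602 CPM, the lowest), LAMB1 in WT FOXP2 replicate 2 (230.1 CPM, the highest), LAMC1 in mock replicate 5 (605 CPM, the lowest) and NID1 in dhelix FOXP2 replicate 4 (376 CPM, the lowest).

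The effect of FOXP2 differed between cells with and without CHIR for all 9 genes with each form (edgeR quasi-likelihood test of the interaction), as it did for 64.8% of all genes with dhelix FOXP2 and 65.6% with WT FOXP2. With dhelix FOXP2 the effect with CHIR minus that without it was, on the log2 scale, 3.38 for LAMA4, 3.10 for NID2, 1.89 for LAMA5, 1.21 for LAMB1, 1.15 for LAMA3, 1.11 for LAMB2, 0.84 for LAMA2, 0.51 for NID1 and 0.12 for LAMC1. With WT FOXP2 it was 2.88 for LAMA4, 2.49 for NID2, 2.12 for LAMA5, 1.19 for LAMA3, 1.12 for LAMB2, 0.98 for LAMB1, 0.89 for LAMA2, 0.72 for NID1 and -0.11 for LAMC1. The difference between dhelix FOXP2 and WT FOXP2 itself depended on CHIR for 4 of the 9 genes (14.2% of all genes), by 0.50 for LAMA4, 0.23 for LAMC1, 0.22 for LAMB1 and -0.21 for NID1. The 2 sets of interactions with FOXP2 share their mock and CHIR libraries.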

How the results depend on the processing

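No value of the 9 genes that passed the test in either setting changed direction under the alternatives run. Of 2214 values of single genes under an alternative, 2135 stayed on their side of the threshold, 70 were no longer past it and 9 came to pass it. The calls of LAMA2, of LAMA4 outside the helix deletion interaction, and of NID1 held in every alternative run. The number of the 9 genes called for the interaction of the helix deletion with CHIR was 4, and 2 with no filter on low counts, and leaving out 1 library at a time it ranged from 3 to 5. The number of all genes called for it was 2627, and 4291 with the compared groups alone. The interaction of dhelix FOXP2 with CHIR for LAMC1 and the rise of NID2 with CHIR in dhelix FOXP2 cells were not called with no filter (adjusted p = 0.66 and 0.058); the cause was not tested. Without the 3 libraries that stood apart, 7 of the 9 genes were called for WT FOXP2 + CHIR against CHIR in place of 8, 8 for dhelix FOXP2 + CHIR against CHIR in place of 9, and 6 for dhelix FOXP2 + CHIR against WT FOXP2 + CHIR in place of 5.

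Same-numbered replicates were not paired: correlations of their deviations from the group means ran from -0.0775 to 0.145, with 1 pair above 0.1. By mean correlation 10 of 30 libraries matched their own number best among the 5 numbers. That is more than an even split over 5 numbers would give. With the replicate block the counts of the 9 genes called were the same in all 12 comparisons as without it.

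Low counts limit LAMA3 and NID2, whose smaller differences lay within the spread of single libraries, and intervals cover these samples only, which came from 1 cell line.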
